A study of Mus musculus with 14 samples.

Results

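The 7 genes Nanog, Dppa5a, Utf1, Sox15, Nr0b1, Nr5a2 and Klf2 are markers or regulators of mouse pluripotent cells, and were followed here by symbol among the 26962 genes that any library listed. Their transcripts were measured by RNA sequencing of total RNA from mouse embryonic fibroblasts of strain OG2/129SV that were being reprogrammed. Every library came from cells that received exogenous Oct4, Sox2, Klf4 and c-Myc and grew in the medium of embryonic stem cells with the cytokine LIF. On top of these factors came either Cdk9-DN, named as a dominant negative of the kinase Cdk9, or its control vector. Groups are the control vector and Cdk9-DN at days 4, 5 and 10 after infection with 2 libraries each, and at day 3 with 1 library each, 14 libraries in all. No library of untransduced fibroblasts or of established stem cells was analysed here, and nothing in the labels says whether replicates were separate cultures, so the spread between them may be technical.

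Pluripotent stem cells hold their state through a small circuit of transcription factors that bind each other's genes. Nanog is a homeodomain factor at the centre of this circuit. Klf2 is a zinc finger factor that can stand in for Klf4, Nr5a2 is an orphan nuclear receptor that can activate the Oct4 gene, and Nr0b1 (Dax1) is an atypical nuclear receptor that binds Nr5a2 and Oct4 and is best known as a corepressor. Sox15 is a relative of Sox2, Utf1 is a chromatin-bound protein of undifferentiated cells, and Dppa5a is a small RNA-binding protein of early embryos and stem cells. In fibroblasts these genes are low or silent, and their activation from the endogenous loci is a late step of reprogramming. The kinase Cdk9 acts within P-TEFb to free paused RNA polymerase II for productive elongation.

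In the coordinates of the deposited tables (mm9), Nanog lies at chr6:122657507-122664651, Dppa5a at chr9:78214859-78215984, Utf1 at chr7:147129688-147131011 and Sox15 at chr11:69468816-69470229. Nr0b1 lies at chrX:83437103-83441286, Nr5a2 at chr1:138740161-138857004 and Klf2 at chr8:74842932-74845555. All 7 are protein-coding, and no other listed gene overlapped any of these spans. Nr5a2 is the longest locus, at 116844 bases with 8 exons in its annotated transcript, while the other 6 have 2 to 4 exons. Dppa5a has a near-identical copy on the same chromosome, Dppa5b (chr9:78093301-78094403), and reads of the pair may have been divided between them, so its level is uncertain.

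The promoter sequences are shown for 3 genes only, Nanog, Utf1 and Nr0b1. At day 10 Utf1 was called lower and Nr0b1 higher with Cdk9-DN, and Nanog was not called. Sox15, also high at day 10 and called lower, had an entry too and is not shown. Each sequence shown is the 250 bases before the RefSeq start site, read 5′ to 3′ on the gene's strand (GRCm38.p6, a later build than that of the expression tables). They lie at chr6:122707239-122707488 (Nanog), chr7:139943606-139943855 (Utf1) and chrX:86191525-86191774 (Nr0b1), all on the plus strand. Capitals mark matches to the motifs named after each.
Nanog: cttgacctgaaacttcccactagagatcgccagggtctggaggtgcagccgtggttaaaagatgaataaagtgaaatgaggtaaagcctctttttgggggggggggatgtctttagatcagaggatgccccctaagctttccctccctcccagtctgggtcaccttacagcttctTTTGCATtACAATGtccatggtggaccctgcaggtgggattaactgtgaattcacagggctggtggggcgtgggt
Utf1: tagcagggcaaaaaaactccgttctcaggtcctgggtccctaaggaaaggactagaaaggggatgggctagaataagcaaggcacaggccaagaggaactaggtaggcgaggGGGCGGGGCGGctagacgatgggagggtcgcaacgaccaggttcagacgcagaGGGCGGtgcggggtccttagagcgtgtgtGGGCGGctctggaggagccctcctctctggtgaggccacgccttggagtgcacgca
Nr0b1: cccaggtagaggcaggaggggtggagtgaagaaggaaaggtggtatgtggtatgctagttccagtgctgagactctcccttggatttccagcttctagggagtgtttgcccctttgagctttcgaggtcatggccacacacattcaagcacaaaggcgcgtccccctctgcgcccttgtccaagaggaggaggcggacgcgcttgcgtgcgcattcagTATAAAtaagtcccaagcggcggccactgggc
In the Nanog window the capitals are an OCT core (TTTGCAT) and a SOX core (ACAATG) with 1 base between them, 75 to 62 bases before the start. Of 32851 promoter windows of this length, 4.12% held the OCT core and 10.7% the SOX core on either strand, and 2 held the spaced pair, both of them Nanog windows. In the Utf1 window the capitals are 4 GC boxes (GGGCGG), the first pair of which overlap by 1 base, and 32.7% of windows held a GC box. In the Nr0b1 window the capitals are a TATA box (TATAAA) 32 to 27 bases before the start, held by 12.4% of windows. The KLF site GGGTGTGG was found once, in the Sox15 window (3.20% of windows), and the NR5A site CAAGGTCA (1.33% of windows) in none of the 8 windows of the 6 genes with an entry. Klf2, with 2 GC boxes, had the window richest in CpG, at 29 CpG, more than 93.2% of windows. These are letter matches, not measured binding, and the motifs were chosen with the sequences at hand. Dppa5a had no entry.

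Levels are FPKM, fragment numbers divided by transcript length and by the size of the library, so that genes can be compared per length. Depth, worked out from the deposited bounds, was 8.79 to 12.96 M fragments per library, 4947 to 5292 genes reached 1 FPKM, and the top 10 genes took 33.4% to 76.1% of all FPKM. A gene that a library does not list has no value there and is not counted as 0. Dppa5a, Utf1, Nr0b1 and Nr5a2 were listed in all 14 libraries, Klf2 in 13, Sox15 in 12 and Nanog in 11. Differences are on the log2(FPKM + 1) scale, which understates the change of low genes, and a gene was called when limma's adjusted p over all genes tested was under 0.05. All 7 genes passed the filter of 1 FPKM in 2 of the 12 libraries of days 4, 5 and 10, but Dppa5a, Utf1, Sox15 and Nr5a2 did so only through day 10 and therefore had to differ over time. Nr5a2 did so only through the Cdk9-DN libraries of day 10. In bulk RNA, fewer cells that express a gene and less RNA per cell cannot be told apart.

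The fibroblast label was checked with 15 fibroblast markers, of which 8 were listed in any library. Twist2 reached 72.2 FPKM and Thy1 83.6 FPKM in their highest libraries. Pou5f1 (Oct4) and Klf4 were listed in 0 libraries, so neither their delivered nor their endogenous transcripts were analysed here. Sox2, at up to 501 FPKM, was not separated into delivered and endogenous transcripts. Cdk9 was not analysed here either, so the Cdk9-DN label has no check in these values.

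Through day 5 most of the genes were at or near 0 with both vectors, and by day 10 6 of the 7 had risen with both. Dppa5a, Sox15, Utf1 and Nanog were the high genes of the control cells at day 10. In Cdk9-DN cells these 4 reached 20.4% to 54.2% of the control level, and Nr0b1 stood higher than in control cells. Klf2 did not follow this course. The plot of levels by day shows the libraries one by one.

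**Figure D1:**
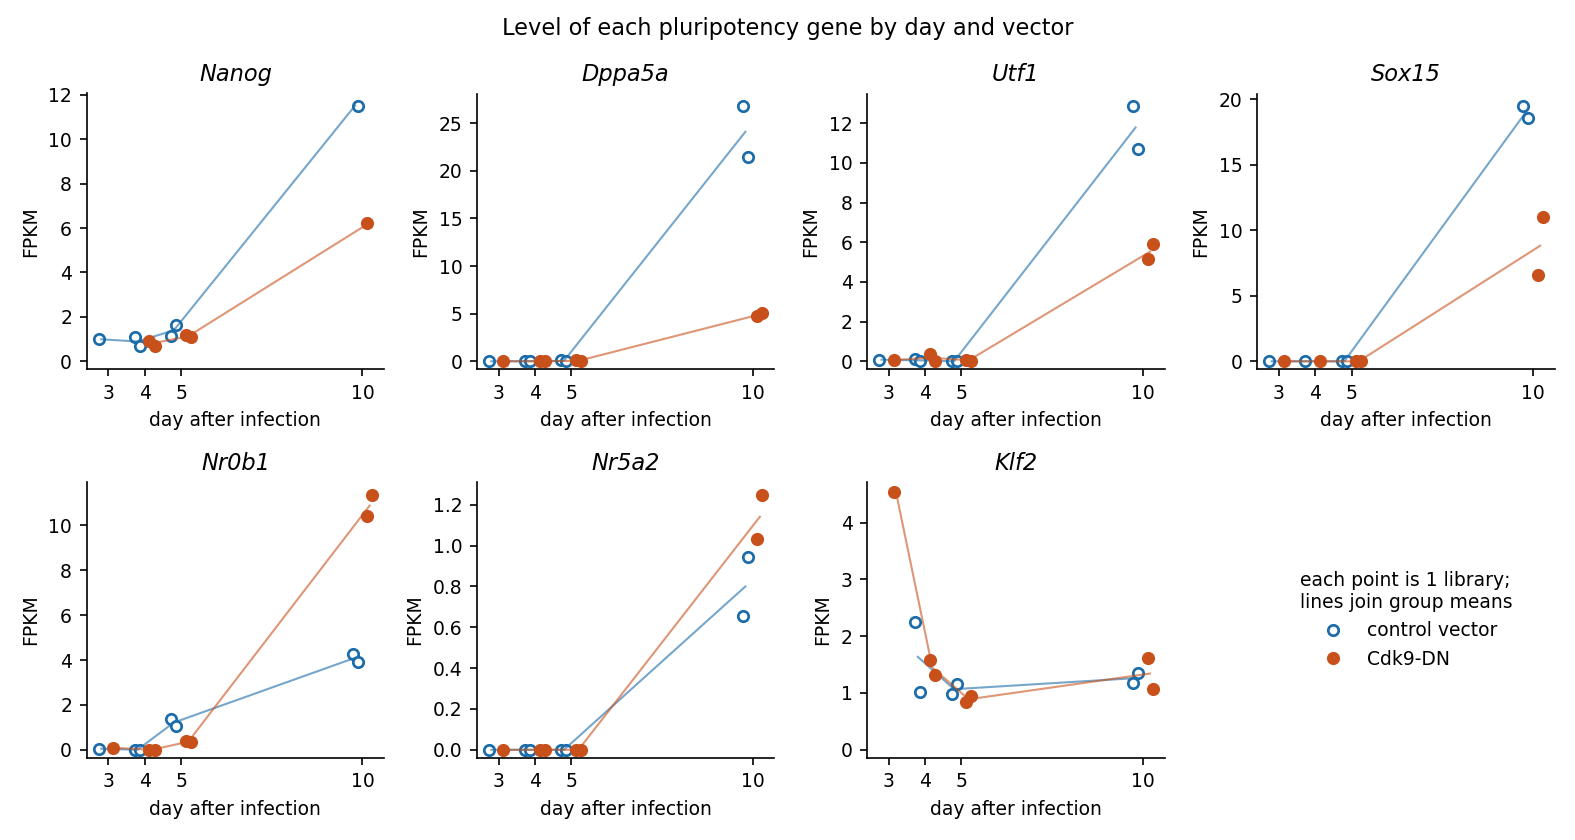
Level in FPKM (vertical axes, linear, own scale for each gene) against the day after infection for the 7 genes; open blue points are control libraries, filled orange points Cdk9-DN libraries, lines join group means, and libraries that do not list a gene have no point. Dppa5a, Utf1, Sox15 and Nr5a2 leave the baseline only at day 10, Nr0b1 has left it at day 5, and the highest Klf2 point is the Cdk9-DN library of day 3 at 4.53 FPKM.

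Dppa5a was listed at 0 in both day 3 libraries. At day 4 it had 0 and 0.0351 FPKM with the control vector and 0 in both Cdk9-DN libraries, and at day 5 it had 0.0878 and 0 FPKM with the control vector and 0.103 and 0 FPKM with Cdk9-DN. At day 10 it stood at 26.8 and 21.4 FPKM with the control vector and 4.78 and 5.06 FPKM with Cdk9-DN. The early values each correspond to less than 1 fragment, and the day 10 groups did not overlap. The day 10 levels rest on 143 and 119 implied fragments in control and 28.0 and 30.7 in Cdk9-DN libraries.

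Dppa5a was the highest of the 7 genes in control cells and the one with the largest Cdk9-DN difference. Control and Cdk9-DN means at day 10 were 24.1 ± 3.79 and 4.92 ± 0.20 FPKM (SD, n = 2), or 20.4% of control. The log2 difference was -2.08 (SE 0.114, adjusted p = 4.87e-05). Its copy Dppa5b was listed at 6.13 and 5.48 FPKM with the control vector and 1.446 and 1.62 FPKM with Cdk9-DN of day 10, both lower with Cdk9-DN. Since reads may be shared, the copy is not an independent measurement. The ratio of Dppa5a to Dppa5b was 4.36 and 3.91 in control and 3.30 and 3.12 in Cdk9-DN libraries.

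Utf1 had 0.0801 FPKM in the control and 0.0714 FPKM in the Cdk9-DN library of day 3. At day 4 it had 0.0944 and 0 FPKM with the control vector and 0.362 and 0 FPKM with Cdk9-DN, and at day 5 it was listed at 0 in 3 of the 4 libraries and at 0.0897 FPKM in Cdk9-DN replicate 1. By day 10 it had reached 12.9 and 10.7 FPKM with the control vector and 5.14 and 5.92 FPKM with Cdk9-DN. The largest early value, 0.362 FPKM, corresponds to about 2.51 fragments, while the day 10 libraries hold 69.0 to 154 implied fragments.

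At day 10 the vectors were apart, with 11.8 ± 1.52 FPKM with the control vector and 5.53 ± 0.549 FPKM with Cdk9-DN (SD, n = 2), or 46.9% of control. Utf1 was called lower with Cdk9-DN (-0.97, SE 0.161, adjusted p = 0.00500), a call that ended with a pseudocount of 0.1 (adjusted p = 0.320).

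Sox15 was listed at 0 in every library of days 3, 4 and 5 that lists it, 8 libraries in all. At day 10 it stood at 19.5 and 18.6 FPKM with the control vector and 6.63 and 11.04 FPKM with Cdk9-DN. The groups did not overlap, but the Cdk9-DN replicates differed from each other by more than any other pair of this gene. Means were 19.0 ± 0.657 and 8.83 ± 3.12 FPKM (SD, n = 2), or 46.4% of control, and Sox15 was called lower with Cdk9-DN (-1.06, SE 0.217, adjusted p = 0.0210). That call ended without control replicate 1 of day 10 (adjusted p = 0.0915) without control replicate 2 (adjusted p = 0.0699) and with no filter on low values (adjusted p = 0.0766).

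Nanog was above 0 from the start. The control library of day 3 had 0.990 FPKM, and the Cdk9-DN library of that day did not list it. At day 4 it had 1.08 and 0.707 FPKM with the control vector and 0.911 and 0.692 FPKM with Cdk9-DN, and at day 5 1.15 and 1.63 FPKM with the control vector and 1.16 and 1.09 FPKM with Cdk9-DN. These early values each rest on 11.5 to 23.5 implied fragments, and the vectors overlapped at both days.

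At day 10 Nanog was listed in 1 library per vector, at 11.5 FPKM in control replicate 2 and 6.24 FPKM in Cdk9-DN replicate 1, or 54.2% of control. Their deposited bounds, 9.75 to 13.3 and 5.02 to 7.46 FPKM, did not meet. The difference of -0.79 (95% interval -1.35 to -0.23) just missed the call at adjusted p = 0.0503, with its spread taken from the other days. It passed with a pseudocount of 5 (adjusted p = 0.00602) and with no variance trend (adjusted p = 0.0454). The level at day 10 with Cdk9-DN is therefore a value of 1 library, with no replicate check.

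Nr0b1 had 0.0478 FPKM in the control and 0.0851 FPKM in the Cdk9-DN library of day 3, about 1.0 and 1.99 fragments, and was listed at 0 in all 4 libraries of day 4. At day 5 it had 1.36 and 1.061 FPKM with the control vector and 0.374 and 0.351 FPKM with Cdk9-DN. By day 10 it stood at 4.29 and 3.91 FPKM with the control vector and 10.4 and 11.4 FPKM with Cdk9-DN. The control libraries were the higher pair at day 5, a difference that was not called, and the Cdk9-DN libraries were the higher pair at day 10.

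Nr0b1 was the 1 gene of the 7 called between day 4 and day 5. It rose in control cells by a log2 difference of 1.14 (adjusted p = 0.00133), where 1.83% of all genes tested were called higher. In Cdk9-DN cells it rose by 0.45 (adjusted p = 0.0472), where 1.34% of all genes were called higher. The Cdk9-DN call ended in 5 of the 11 other settings and without any of 10 single libraries (adjusted p = 0.0576 to 0.197), and the control call ended when the 4 libraries of this comparison were fitted alone (adjusted p = 0.0893).

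At day 5 the control libraries held 30.0 and 17.0 and the Cdk9-DN libraries 7.0 and 8.0 implied fragments of Nr0b1. The means were 1.21 ± 0.214 and 0.363 ± 0.0163 FPKM (SD, n = 2). The Cdk9-DN effect of -0.70 (95% interval -0.91 to -0.49) missed the call at adjusted p = 0.0512, and 0.169% of all genes tested were called at that day. It passed under median-of-ratios scaling (adjusted p = 0.0352), with a pseudocount of 0.1 (0.0355), with no variance trend (0.0284) and without control replicate 2 of day 5 (0.0468).

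At day 10 the Cdk9-DN libraries were the higher pair for Nr0b1. Since the day 5 effect was not called, a change of sign between the days is not established. Means were 4.10 ± 0.270 FPKM with the control vector and 10.9 ± 0.679 FPKM with Cdk9-DN (SD, n = 2), 2.66-fold higher with Cdk9-DN, and the gene was called (1.22, SE 0.0891, adjusted p = 1.65e-04). Between day 5 and day 10 it rose by 1.21 in control (adjusted p = 4.34e-05) and by 3.12 in Cdk9-DN cells (adjusted p = 8.41e-07). The difference between these changes, a contrast added after values were seen, was itself called, at 1.92 (SE 0.126, adjusted p = 1.86e-04).

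Nr5a2 was listed at 0 in all 10 libraries of days 3, 4 and 5. At day 10 it had 0.654 and 0.946 FPKM with the control vector and 1.03 and 1.25 FPKM with Cdk9-DN, on 27.2 to 58.4 implied fragments. The Cdk9-DN libraries were the higher pair, but the gap between the groups was smaller than the gap between the control replicates. Means were 0.800 ± 0.207 and 1.14 ± 0.152 FPKM (SD, n = 2), and the difference of 0.25 (95% interval 0.03 to 0.48) was not called (adjusted p = 0.0865). Nr5a2 reached 1 FPKM in the Cdk9-DN libraries of day 10 only, so it passed the filter through the group where it is high, and nothing is read from this test. The same holds for its value without control replicate 2 of day 10, 0.37 (adjusted p = 0.0228).

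Klf2 was the 1 gene of the 7 with no late rise. It had 2.25 and 1.02 FPKM with the control vector and 1.58 and 1.31 FPKM with Cdk9-DN of day 4, and 0.976 and 1.16 FPKM with the control vector and 0.835 and 0.943 FPKM with Cdk9-DN of day 5. At day 10 it had 1.18 and 1.35 FPKM with the control vector and 1.61 and 1.08 FPKM with Cdk9-DN. The groups overlapped at days 4 and 10, and at day 10 the difference was 0.04 with a 95% interval of -0.47 to 0.56 (adjusted p = 0.924), which leaves room for a change of that size in either direction. The Cdk9-DN library of day 3 stood apart at 4.53 FPKM, with bounds of 3.66 to 5.40 FPKM and 109 implied fragments, and the control library of that day does not list the gene. Day 3 was kept out of the tests.

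Compared with day 4, 6 of the 7 genes were called higher at day 10 in control cells and the same 6 in Cdk9-DN cells. Of all genes tested, 28.2% and 24.5% were called higher in these comparisons. For the 4 genes that passed the filter only through day 10, no evidence is to be read from the count. The log2 differences in control cells were 4.62 for Dppa5a, 4.32 for Sox15, 3.61 for Utf1, 2.73 for Nanog, 2.35 for Nr0b1 and 0.84 for Nr5a2, with adjusted p from 2.54e-07 to 2.81e-04. In Cdk9-DN cells they were 3.57 for Nr0b1, 3.26 for Sox15, 2.57 for Dppa5a, 2.48 for Utf1, 2.01 for Nanog and 1.10 for Nr5a2, with adjusted p from 5.54e-07 to 9.94e-04. Klf2 gave -0.18 (adjusted p = 0.535) and -0.07 (adjusted p = 0.844). Without control replicate 2 of day 4 the control value was -0.52 and Klf2 was called lower (adjusted p = 0.0420), and without control replicate 1 it was 0.16. The same 6 were called higher at day 10 against day 5 with either vector, where 27.3% and 22.5% of all genes were called higher. Under quantile normalization the median of all genes moved from 0.07 to -0.11 in control and from 0.11 to -0.06 in Cdk9-DN cells for day 10 against day 4, and the 6 genes were still called higher.

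The Cdk9-DN effect was tested at each day. At day 4 none of the 7 genes was called by limma, and none had an unadjusted p under 0.05, while 0.0336% of all genes tested were called. Nr0b1, Nr5a2 and Sox15 were then at 0 wherever listed, and Dppa5a and Utf1 at or near 0. For these genes a lower level with Cdk9-DN could hardly be seen, and the same holds at day 5 for all of them but Nr0b1. At day 5 again none was called, with Nr0b1 under 0.05 unadjusted. At day 10 Dppa5a, Utf1 and Sox15 were called lower, where 14.4% of all genes tested were called lower, and Nr0b1 was called higher, where 14.5% were called higher. The median difference of the 7 genes, from which nothing is read since Nr5a2 is among them, was -0.79, and that of all genes tested was 0.00. Averaged over days 4, 5 and 10, Dppa5a alone was called (-0.70, adjusted p = 0.00154), where 10.9% of all genes were called. This call ended with a pseudocount of 0.1 (adjusted p = 0.0951) and in a model with vector and day as additive terms (adjusted p = 0.426). In that average the opposite differences of Nr0b1 at days 5 and 10 are combined.

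The spread in these tests is pooled over days 4, 5 and 10. At days 4 and 5 Sox15 was at 0 wherever listed, Dppa5a was at 0 to 0.103 FPKM and Utf1 at 0 to 0.362 FPKM, and Nr0b1 was at 0 on day 4 but not on day 5, so that spread rests partly on libraries at or near 0. With the 4 libraries of day 10 fitted alone, Dppa5a (adjusted p = 0.0320) and Nr0b1 (adjusted p = 0.0367) were called, and Utf1 (adjusted p = 0.0616) and Sox15 (adjusted p = 0.126) were not.

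**Figure D2:**
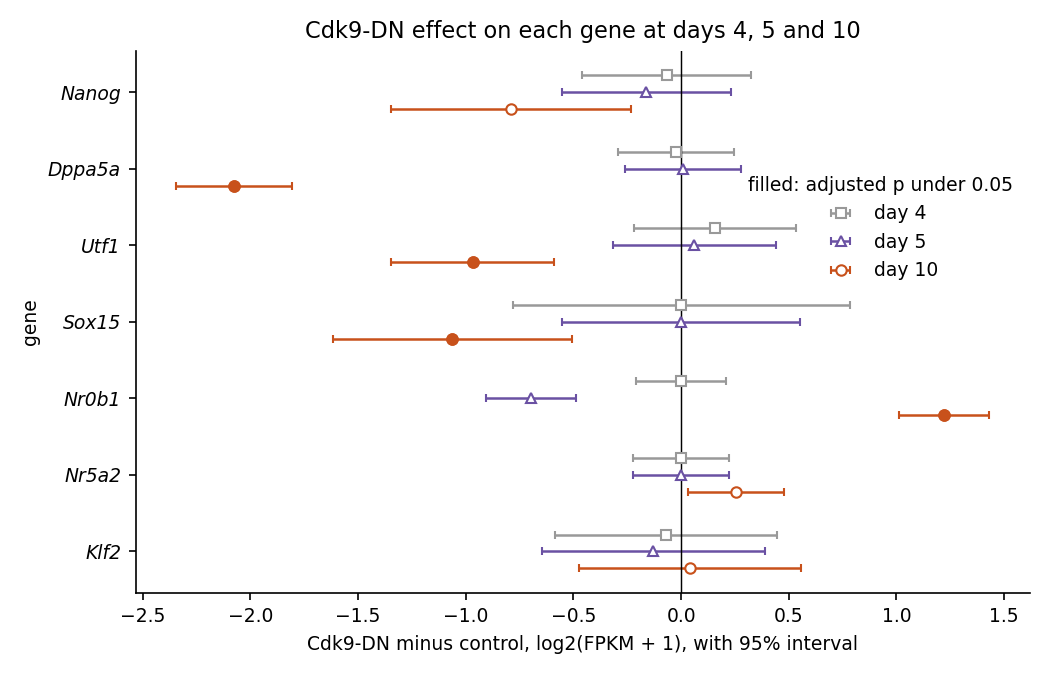
Difference of Cdk9-DN minus control on the log2(FPKM + 1) scale (horizontal axis) for each gene (vertical axis) at day 4 (squares), day 5 (triangles) and day 10 (circles), with 95% intervals from limma; filled symbols have an adjusted p under 0.05. At day 10 Dppa5a, Utf1 and Sox15 lie to the left of 0 and Nr0b1 to the right, while Nr0b1 lay to the left at day 5, where it was not called.

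Whether the day 10 rise itself differed between vectors was tested as a difference of changes. Nr0b1, Sox15 and Nr5a2 were at 0 with both vectors at day 4 wherever listed. For them the change from day 4 gives the day 10 Cdk9-DN effect again. Dppa5a and Utf1 were at or near 0 at days 4 and 5, so theirs is largely the same comparison too. From day 4 to day 10, Dppa5a rose less with Cdk9-DN (-2.05, SE 0.162, adjusted p = 4.64e-04), as did Utf1 (-1.12, SE 0.227, adjusted p = 0.0176), and Nr0b1 rose more (1.22, SE 0.126, adjusted p = 0.00135). Of all genes tested, 15.7% were called in this comparison. Sox15 (-1.06, adjusted p = 0.128), Nanog (-0.72, adjusted p = 0.141), Nr5a2 (0.25, adjusted p = 0.252) and Klf2 (0.11, adjusted p = 0.857) did not pass. Against day 5 instead of day 4 the same 3 genes were called, Dppa5a at -2.09 (adjusted p = 3.89e-04), Utf1 at -1.03 (adjusted p = 0.0248) and Nr0b1 at 1.92, with 16.2% of all genes called. The Utf1 call against day 4 ended in 5 of the 11 other settings (adjusted p = 0.0543 to 0.316) and without control replicate 2 of day 4, control replicate 1 of day 10 or Cdk9-DN replicate 1 of day 10 (adjusted p = 0.0503 to 0.0587). Against day 5 it ended in 4 of 11 settings (adjusted p = 0.0703 to 0.365) and without any library of day 5 or replicate 1 of either vector at day 10 (adjusted p = 0.0557 to 0.0755). Sox15 passed against day 4 without Cdk9-DN replicate 2 of day 10 (adjusted p = 0.0122). The Dppa5a call against day 4 ended with a pseudocount of 0.1 (adjusted p = 0.0685).

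Cdk9-DN thus went with another order of the 7 genes at day 10. In control cells the order of the means in FPKM was Dppa5a, Sox15, Utf1, Nanog, Nr0b1, Klf2, Nr5a2. Utf1 and Nanog did not differ beyond the spread of Utf1, and all other neighbours in the order did not overlap. In Cdk9-DN cells it was Nr0b1, Sox15, Nanog, Utf1, Dppa5a, Klf2, Nr5a2. There Nr0b1 overlapped with Sox15, and Klf2 with Nr5a2, while Nanog, Utf1 and Dppa5a lay between 4.78 and 6.24 FPKM. Nr0b1 moved up to the first place and Dppa5a down from it.

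**Figure D3:**
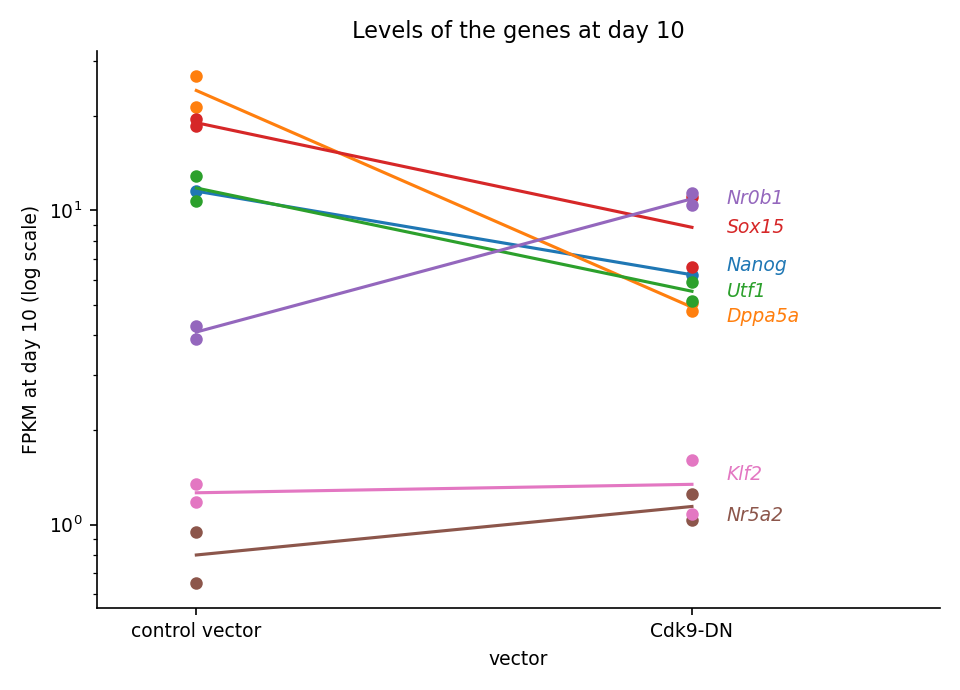
Level at day 10 in FPKM (vertical axis, log scale) with the control vector and with Cdk9-DN; points are libraries and lines join the means of each gene, with 2 libraries per vector except for Nanog with 1. The lines of Dppa5a, Sox15, Utf1 and Nanog fall, that of Nr0b1 climbs from 4.10 to 10.9 FPKM and crosses all 4, and those of Klf2 and Nr5a2 stay near 1 FPKM.

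Ratios within a library do not depend on the scaling between libraries. Dppa5a stood at 6.24 and 5.47 times Nr0b1 in the control libraries and at 0.459 and 0.445 times Nr0b1 in the Cdk9-DN libraries of day 10. For Utf1 the ratio to Nr0b1 was 3.0 and 2.74 in control and 0.494 and 0.520 in Cdk9-DN libraries, and for Sox15 it was 4.54 and 4.75 in control and 0.637 and 0.971 in Cdk9-DN libraries. All 3 ratios lay on different sides of 1 with the 2 vectors. They share Nr0b1 as denominator and restate the day 10 levels of these genes, so they are not 3 separate results. In contrast, Sox15 stood at 1.52 and 1.73 times Utf1 in control and at 1.29 and 1.87 times Utf1 in Cdk9-DN libraries, with overlap. Dppa5a fell relative to Utf1 as well, from 2.08 and 1.998 to 0.930 and 0.855.

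Summed over the 6 genes other than Nanog, the control libraries of day 10 had 65.2 and 56.9 FPKM and the Cdk9-DN libraries 29.6 and 35.7 FPKM. Dppa5a made up 41.0% and 37.6% of the sum in control and 16.1% and 14.2% in Cdk9-DN libraries, and Nr0b1 6.58% and 6.87% in control and 35.2% and 31.8% in Cdk9-DN libraries. The share of Utf1 was 19.7% and 18.8% in control and 17.4% and 16.6% in Cdk9-DN libraries, so that its share shifted by little.

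Other pluripotency genes were taken from a list of 42, of which 21 were listed in any library and 9 passed the filter. Of the 5 tested for the Cdk9-DN effect at day 10, 4 were called lower and 0 higher, with a median of -0.62, where 14.4% of all genes were called lower. Zfp42 (Rex1), a zinc finger marker of naive stem cells, had 2.81 and 2.27 FPKM with the control vector and 1.35 and 1.24 FPKM with Cdk9-DN (-0.62, adjusted p = 0.00318). Tdgf1 (Cripto), a Nodal co-receptor, had 10.7 and 10.9 FPKM with the control vector and 8.69 and 7.35 FPKM with Cdk9-DN (-0.39, adjusted p = 0.0152). Gdf3, a TGF-beta family ligand, was lower as well (-0.37, adjusted p = 0.0445), and so was Klf5 (-0.80, at 8.41 and 4.402 FPKM in 1 library each). Gdf3 reached 1 FPKM only in control libraries of days 5 and 10, so it passed the filter through the vector where it is high. Nothing is read from its call, or from the count and median of this list, which include it. Lefty1, a Nodal inhibitor, had -0.72 and was not called (adjusted p = 0.0562). Among the 7 genes and the 5 tested from this list, Nr0b1 alone was called higher with Cdk9-DN at day 10, where 14.5% of all genes were. Since Gdf3 and Nr5a2 are among them, nothing is read from that count either. In control cells, 5 of 6 tested were called higher at day 10 than at day 4, where 28.2% of all genes were. They include Tdgf1 at 3.56, Zfp42 at 1.78, Lefty1 at 1.05 and Klf5 at 0.82. Tdgf1 and Zfp42 reached 1 FPKM at day 10 only and therefore had to differ over time. No evidence is to be read from the count. Eras was listed at 0 in all 14 libraries.

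Among the KLF family other than Klf2, 11 of 16 genes were listed and 5 tested at day 10. Klf15 (-0.90, adjusted p = 0.00181), Klf6 (-0.81, adjusted p = 7.42e-04) and Klf5 were called lower with Cdk9-DN and none higher, where 14.4% of all genes were called lower. Klf16 (0.17, adjusted p = 0.212) and Klf12 (0.33, adjusted p = 0.112) were not called, like Klf2. LIF signalling through STAT3 feeds the circuit from outside, and of 17 genes of that pathway 6 were listed and 3 tested. All 3, Klf5, Junb (-0.57, adjusted p = 0.00351) and Pim3 (-0.47, adjusted p = 0.0155), were called lower, against the same 14.4%. Klf5 is counted in all 3 of these lists. Klf5 was listed in 1 library per vector at day 10 and Pim3 in 1 Cdk9-DN library, so the spread of those arms was taken from the other groups. Stat3, Lifr and Socs3 were listed in 0 libraries. Of the nuclear receptors closest to Nr5a2 and Nr0b1, Nr5a1 was listed at 0 in the 6 libraries that list it, and Nr0b2 reached 0.15 FPKM at most.

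**Figure D4:**
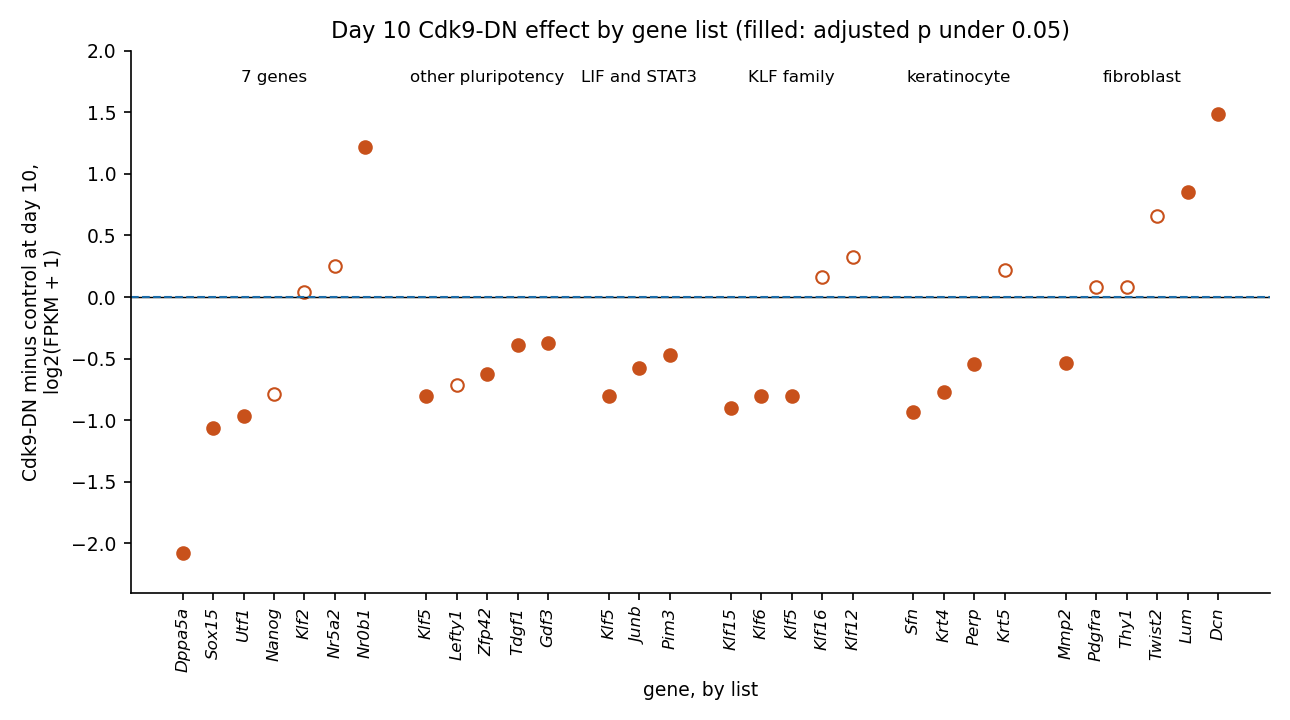
Difference of Cdk9-DN minus control at day 10 on the log2(FPKM + 1) scale (vertical axis) for every tested gene of 6 lists (horizontal axis); filled circles have an adjusted p under 0.05, and the dashed line is the median of all genes tested, 0.00. Within these 6 lists Dppa5a is the lowest gene at -2.08, Nr0b1 is the only filled circle above 0 outside the fibroblast list, and Klf5 appears in each of its 3 lists. Of all genes tested, 14.5% were called higher.

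Some markers of other cells differed between the vectors at day 10. Of 11 keratinocyte markers 9 were listed and 5 were listed in all 14 libraries. These 5 summed to 324 to 332 FPKM with the control vector and 212 to 214 FPKM with Cdk9-DN of day 10, against 50.8 to 53.1 FPKM at day 4. Most of this was Perp, with means of 254 FPKM with the control vector and 174 FPKM with Cdk9-DN of day 10. Of 15 fibroblast markers 2 were listed in all 14 libraries, Dcn and Lum, and summed to 3.85 to 4.42 FPKM with the control vector and 13.3 to 15.0 FPKM with Cdk9-DN of day 10, against 15.7 to 17.1 FPKM at day 4. Most of that sum was Dcn, with means of 4.07 FPKM with the control vector and 13.2 FPKM with Cdk9-DN of day 10. The keratinocyte sum was lower with Cdk9-DN, as were Dppa5a, Utf1 and Sox15, and the sum of Dcn and Lum was higher, as was Nr0b1. Within the lists the genes differed, where 14.5% of all genes tested were called higher with Cdk9-DN at day 10 and 14.4% lower. Of 4 keratinocyte markers tested, Sfn, Krt4 and Perp were called lower, and Krt5, listed in 1 library per vector, was not called (0.22). Krt4 reached 1 FPKM only in the control libraries of day 10. It thus passed the filter through the group where it is high, and nothing is read from its call. Of 6 fibroblast markers tested, Dcn and Lum were called higher, Mmp2 lower (-0.54, adjusted p = 0.00960), and Thy1 (0.08), Pdgfra (0.08) and Twist2 (0.66, adjusted p = 0.0956) were not called. Their part in these results was not tested.

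The 11 primed epiblast markers had 8 listed and 4 listed throughout, which summed to 89.8 to 92.3 FPKM with the control vector and 10.7 to 11.8 FPKM with Cdk9-DN at day 10. Most of this was Krt18, a keratin also of simple epithelia, at 85.2 ± 1.96 and 6.71 ± 0.552 FPKM (SD, n = 2; -3.49, adjusted p = 8.33e-06), a larger difference than that of any of the 7 genes. Sfrp2, the other marker of this list tested, was not called (-0.27, adjusted p = 0.132). Otx2, T and Foxa2 of that list were at 0 in the 10, 7 and 10 libraries that list them, and have no value in the others. The part of these genes in the results was not tested.

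For the remaining lists of other cell types, the markers listed in all 14 libraries summed to under 4 FPKM at day 10. Markers listed in fewer libraries are outside these sums. Among them, Tek, Pdgfra and Nanos3 reached 23.2, 4.00 and 1.63 FPKM in the 5, 12 and 11 libraries of any day that list them. The 3 of 10 endothelial markers listed throughout summed to 3.68 to 3.81 FPKM with the control vector and 0.957 to 0.974 FPKM with Cdk9-DN, almost all from Cldn5, while Cdh5 reached 0.0780 FPKM at most. The sums were 1.12 to 1.56 and 0.518 to 0.924 FPKM for 6 of 13 trophoblast markers, 1.17 to 1.21 and 0.882 to 0.999 FPKM for 4 of 12 primitive endoderm markers, 1.09 to 1.13 and 0.346 to 0.395 FPKM for 5 of 10 muscle markers, and 0.0626 to 0.239 and 0.275 to 0.446 FPKM for 3 of 12 germ cell markers. Lama1 of the primitive endoderm list, outside that sum, was called higher with Cdk9-DN at day 10 (0.61), where 14.5% of all genes were. It had 0.988 and 1.32 FPKM with the control vector and 2.29 FPKM in the 1 Cdk9-DN library that lists it. The spread of that arm was taken from the other groups. Gata6 (-0.15) and Pdgfra (0.08), the other genes of that list tested, were not called. Ttr, Myf5, Myog and Dazl were listed at 0 in all 14 libraries. Sox17 and Foxa2 were at 0 in the 9 and 10 libraries that list them, and have no value in the others.

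The genes most like each of the 7 were sought by Pearson's r of the group means of log2(FPKM + 1), over the groups that list both and at least 7 of the 8, among the genes past the filter whose means span at least 1. Nanog was most like Irgm2 (r = 0.998), Tcf15 (0.998) and Cyp11a1 (0.997) over 7 groups. Utf1 was most like Cldn4 (0.999), Mup6 (0.999) and Sox15 (0.999) over all 8 groups, so that 1 of its nearest genes was another of the 7. Dppa5a was closest to Slc6a14 (8 groups; 3.35 and 1.29 FPKM at day 10 in control and Cdk9-DN cells). Nr0b1 was most like Pcx (0.991), As3mt (0.987) and Epcam (0.983), and Klf2 most like Sox9 (0.964), Tmem200b (0.952) and Lce1h (0.946), each over 7 groups. The groups share days, vectors and libraries, and for genes that are at 0 through day 5 the values of r are carried by day 10. For Sox15 and Nr5a2 the nearest genes, Pyy, Ddit3 and Foxi3, gave r = 1 only because 1 group above 0 was left to compare, and the same holds for Pyy and Ddit3 with Dppa5a.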

How the data were processed

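The deposited values are FPKM per gene and library with a lower and an upper bound, as the authors deposited them. The submitters' processing notes name CASAVA 1.8.2, TopHat2 2.0.10 and Cufflinks 2.2.1, and the builds mm9 and NCBIM37. Whether counting used strand is not given in the sources used here. Fragments were derived from the bounds, taken as 2 standard deviations of a count.

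The 12 libraries of days 4, 5 and 10 were fitted in limma 3.58.1 (R 4.3.3) on log2(FPKM + 1) with 6 group means and a variance trend. A library that does not list a gene was dropped from its fit, which needed 2 residual degrees of freedom or more, and p-values (two-sided) were adjusted by Benjamini and Hochberg over all genes tested in a contrast. Genes needed 1 FPKM in 2 libraries, which 7460 passed. The day 3 libraries stayed out. The fit was tested on simulated data. The 7 genes and the lists were chosen with earlier results of these data known, and the contrasts against day 5 were added after values were seen. From each list, up to 4 called genes with the largest difference in the Cdk9-DN effect at day 10 and in control day 10 against day 4 could be named. Genes named beyond this, such as Lefty1 at day 10, and markers listed at 0 or in 0 libraries, were chosen after their values were seen. Alternatives covered scaling, pseudocount, filter, fit and left-out libraries. Exon numbers come from GENCODE M21 and promoters from RefSeq, with 6 of 7 genes matched.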

Additional observations from a re-analysis of the deposited data

Results flagged for a closer look

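Dppa5a, Utf1 and Nr0b1 changed over time by amounts that differed between the vectors, by the test of the difference itself. Where a gene was at or near 0 at the starting day, this test largely restates its day 10 difference. That holds for Dppa5a and Utf1 at both starting days and for Nr0b1 at day 4. From day 4 to day 10 the difference of the changes, Cdk9-DN minus control, was -2.05 for Dppa5a, -1.12 for Utf1 and 1.22 for Nr0b1, and from day 5 to day 10 it was -2.09, -1.03 and 1.92. The Nr0b1 values kept an adjusted p under 0.05 in the 11 other settings and without each of the 12 libraries, for both starting days. For Nr0b1 the sign of the Cdk9-DN effect was negative at day 5 and positive at day 10. The day 5 effect was not called by limma (adjusted p = 0.0512) and rests on 7.0 to 30.0 implied fragments per library, so the change of sign is not established.

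Klf2 stood at 4.53 FPKM in the Cdk9-DN library of day 3, outside the tests. Its lower bound of 3.66 FPKM lay above the highest upper bound of any control library of days 4 and 5, 2.96 FPKM in control replicate 1 of day 4. The control library of day 3 does not list Klf2, and there is no second Cdk9-DN library of that day, so the vectors cannot be compared there.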

How the results depend on the processing

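Of the 7 genes, 4 were called for the Cdk9-DN effect at day 10, and 3 to 5 in the other settings except 2 in a fit of those libraries alone, and 3 to 4 with single libraries left out. The count at day 5 was 0, and 1 under median-of-ratios scaling, pseudocount 0.1 and no variance trend, and 0 to 1 with libraries left out. The averaged effect gave 1, but 0 with pseudocount 0.1, 4 with pseudocount 5, 0 with vector and day as additive terms, and 1 to 2 with libraries left out. Control day 5 against day 4 gave 1, and 0 in a fit of its 4 libraries alone. Cdk9-DN day 5 against day 4 gave 1, but 0 with pseudocount 5, no filter, a filter of 5 FPKM, the replicate block and genes listed in all 12 libraries, and 0 to 1 with libraries left out. The difference of the day 10 to day 4 changes gave 3, but 1 with pseudocount 0.1.

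With libraries left out, only Klf2 changed sign among the reported values: from -0.12 to 0.21 (effect at day 10), -0.52 to 0.16 (control, day 10 against day 4), -0.23 to 0.095 (Cdk9-DN, day 10 against day 4) and -0.23 to 0.46 (difference of these). Replicate numbers did not pair the libraries: of 15 pairs 1 had a correlation over 0.1 (-0.162 to 0.103), and the replicate block changed the count of the 7 genes in no other comparison. Genes called among all tested ranged widely: 357 (day 10 fitted alone) to 1698 at day 10 for the Cdk9-DN effect, against 1658. The ranges were 1 to 18 against 2 at day 4, 3 to 24 against 10 at day 5, 2 (additive terms) to 652 against 585 averaged, 26 to 318 against 299 for control and 41 to 230 against 194 for Cdk9-DN day 5 against day 4, and 396 to 934 against 869 for the difference of changes. For day 10 against day 4 they were 1498 to 2989 against 2907 in control and 1141 to 2208 against 2208 in Cdk9-DN cells. Depth limits Nr0b1 at day 5 and Nr5a2 and Klf2 throughout.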
